A study of Mus musculus with 42 samples.

Results

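The comparison concerns conventional CD4+ T cells (Tconv) of WT mice, sorted from the mesenteric lymph node (mLN), which drains the gut, and from the pooled inguinal and popliteal nodes (iLN+pLN), which drain the ankle joint and are called jLN here. It rests on 6 libraries of the 42 in the series, 3 of mLN and 3 of jLN, picked by their labels for cell type, tissue and genotype. The comparison and the gene lists were chosen with earlier results of these data known. Each site has 1 library from each of 3 independent experiments, lettered A, B and C. All mice carried the DEREG transgene, a Foxp3-driven GFP reporter on a bacterial artificial chromosome, and Tconv were sorted by it from Treg. As background, some Foxp3+ cells of DEREG mice do not express GFP. The WT mice were littermates of TNFdARE mice, which overproduce TNF and develop ileitis and arthritis. The TNFdARE Tconv of the same nodes (2 mLN and 3 jLN libraries) and the WT Treg of the same nodes (3 and 3) served for comparison. Age, sex and the number of animals behind a library are not given in the sources used here, so the p-values measure the spread between these libraries. The female-expressed gene Xist had 722, 896 and 1592 counts in mLN (A, B and C) against 903, 682 and 919 in jLN. The Y-linked gene Ddx3y had 2808, 2028 and 2016 against 1527, 1825 and 2247, so every library held RNA of both sexes. In bulk RNA, fewer cells of a type and less RNA per cell cannot be told apart, and this holds for every difference below.

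As background, T cells primed in mesenteric nodes meet retinoic acid from local dendritic cells, which induces the chemokine receptor CCR9 and the integrin α4β7, the pair that directs them to the small intestine. Mesenteric nodes also hold germinal centres in which follicular helper T cells, marked by CXCR5, PD-1 and interleukin 21, help B cells respond to gut antigens. Type I interferons act on nearly every cell through a transcription factor complex that contains STAT2 and IRF9 and binds interferon-stimulated response elements in the promoters of antiviral genes.

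Because interferon-stimulated genes made up the list with the most calls below, the RefSeq promoters (GRCm38.p6, 250 bases before to 50 after the gene's start, given in the direction of the gene) of 3 of them are shown. Capitals mark each match to the core of the interferon-stimulated response element, searched as GAAANNGAAA on both strands (TTTCNNTTTC on the other), with overlapping matches merged. Isg15 (chr4:156200769-156201068, minus strand) encodes a ubiquitin-like protein, Rsad2 (chr12:26456403-26456702, minus strand) the antiviral enzyme viperin, and Ifit3 (chr19:34583279-34583578, plus strand) a member of the IFIT proteins, which bind foreign RNA.
Isg15: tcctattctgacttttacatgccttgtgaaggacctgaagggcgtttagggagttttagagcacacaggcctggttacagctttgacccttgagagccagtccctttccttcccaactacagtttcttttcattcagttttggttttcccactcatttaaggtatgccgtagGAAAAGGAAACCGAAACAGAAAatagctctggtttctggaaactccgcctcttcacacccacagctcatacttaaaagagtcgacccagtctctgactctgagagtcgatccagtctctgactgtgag
Rsad2: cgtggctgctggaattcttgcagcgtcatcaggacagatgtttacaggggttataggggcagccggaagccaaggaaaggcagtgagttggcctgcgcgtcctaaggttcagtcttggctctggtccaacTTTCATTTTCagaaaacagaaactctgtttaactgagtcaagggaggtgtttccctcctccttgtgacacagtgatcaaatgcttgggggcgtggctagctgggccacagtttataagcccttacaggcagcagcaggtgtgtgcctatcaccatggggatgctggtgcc
Ifit3: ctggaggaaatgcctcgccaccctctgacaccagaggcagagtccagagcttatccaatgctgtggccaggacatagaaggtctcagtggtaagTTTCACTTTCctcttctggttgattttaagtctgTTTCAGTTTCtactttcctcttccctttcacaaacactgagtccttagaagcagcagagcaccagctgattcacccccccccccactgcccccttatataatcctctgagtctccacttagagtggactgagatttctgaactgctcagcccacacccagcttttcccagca
The Isg15 window held 3 overlapping matches, the first 78 bases before the start, Rsad2 held 1 match 120 bases before it, and Ifit3 held 2, the farther one 156 bases before it. Of the 13 listed interferon genes with a window in the table, 7 (53.8%) held at least 1 match, against 3.88% of the 9336 tested genes with a window and 3.44% of all 32851 windows. A match describes these letters and is not a measured binding site.

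Total counts lay between 18261064 and 25916252 in the 6 libraries, and their log2 CPM correlated across genes at r 0.979 to 0.983 within mLN and 0.972 to 0.983 within jLN. The jLN library of experiment C stood apart: it held 31454 detected genes, against 17560 to 18431 in the other 5, and 0.63% of its counts fell in genes too low to be tested, against 0.07% to 0.092%. Its extra genes were mostly at 1 to 10 counts (15667 genes, against 4899 to 5374). Counts are therefore also given without it. Foxp3, the defining factor of Treg and the gene behind the sort, had 7.36, 6.42 and 6.66 CPM in mLN (experiments A, B and C), against 6.60, 6.58 and 7.53 CPM in jLN, while WT Treg of these nodes held 997 to 1304 CPM. Foxp3 did not pass the test between the sites (log2 fold change -0.02, SE 0.19, adjusted p = 0.98, edgeR's quasi-likelihood test).

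The cells had the transcripts of CD4+ T cells at both sites. The 12 T cell identity genes summed to 11350 to 11870 CPM in mLN and 11340 to 12250 CPM in jLN, and none passed the test. Of B cell genes, Ms4a1 and Ebf1 had no count in any mLN library and none in jLN A and B, but 28 and 19 counts in jLN C. Other genes of that list were present at both sites: Cd79a had 87, 79 and 55 counts in mLN against 83, 53 and 66 in jLN, Cd79b 67, 15 and 7 against 27, 11 and 3, Cd22 44, 6 and 58 against 20, 1 and 19, and Ighd 35, 16 and 69 against 29, 25 and 51. Igkc and Igha lay mostly in mLN A and C: Igkc had 106, 5 and 122 counts in mLN against 2, 2 and 0 in jLN, and Igha 68, 2 and 95 against 0, 0 and 2. The neutrophil genes S100a8 and S100a9 were at 0 in all 6. Of the list of CD8 and NK cells, Cd8a had at most 5 counts in a library, but Cd8b1 had 566, 636 and 489 counts in mLN against 641, 581 and 533 in jLN. Klrd1, an NK receptor chain, had 347, 347 and 323 counts in mLN against 461, 521 and 351 in jLN (log2 fold change -0.57, SE 0.15, adjusted p = 0.12, and 0.033 with the experiment letter as a replicate block). The collagen gene Col3a1 was at 0 except for 33 counts in jLN C. The summed B cell list ran from 621 to 662 CPM in mLN and 764 to 801 CPM in jLN, nearly all of it Ighm, which encodes the constant region of IgM heavy chains and had 631, 658 and 618 CPM in mLN, against 783, 791 and 739 CPM in jLN (log2 fold change -0.28, SE 0.06, adjusted p = 0.049). The summed plasma cell list ran from 107 to 117 CPM in mLN and 88.7 to 102 CPM in jLN. Nearly all of it was Xbp1, with 2682, 2436 and 2848 counts in mLN against 2334, 1827 and 1839 in jLN, while Jchain had 28, 5 and 49 against 2, 3 and 9. The myeloid and dendritic list summed to 5.67 to 8.18 CPM in mLN and 8.97 to 16.9 CPM in jLN. The part these cells have in the results below was not tested.

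The main question was what separates gut-draining from joint-draining Tconv in mice without disease. Of 13264 genes tested, 188 (1.42%) passed at an adjusted p below 0.05 in edgeR's quasi-likelihood test, 164 (1.24%) higher in mLN and 24 (0.181%) lower. The groups did not overlap for 2243 genes (16.9%), and the median log2 fold change over all tested genes was -0.02. With the experiment letter as a replicate block, 464 genes passed (3.5%), 349 higher (2.63%) and 115 lower (0.867%), and they included all 188. Without jLN C, 269 passed (2%), 223 higher (1.65%) and 46 lower (0.341%), among them 170 of the 188. Without jLN B only 31 passed, without jLN A 59, without mLN A 75, without mLN B 85 and without mLN C 158. In each of these omissions all 188 kept their direction, and 28 passed in every one.

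Follicular helper genes were higher in mLN. Of the 13 listed, 12 were tested, 9 rose, none fell and 3 did not pass, with a median log2 fold change of 1.147, against 1.24% of all genes called higher. Il21 (chromosome 3, 37222759 to 37232636, GRCm38), the cytokine that supports germinal centre B cells, had 15.9, 12.3 and 13.7 CPM in mLN (A, B and C), against 1.61, 1.82 and 2.15 CPM in jLN. Every mLN library lay well above every jLN library, and the fold change was 7.53 (log2 2.91, SE 0.21, adjusted p = 0.00044). Cxcr5, the receptor that draws T cells into B cell follicles, had 23.7, 26.1 and 37.6 CPM in mLN, against 6.44, 9.07 and 7.42 CPM in jLN (log2 fold change 1.93, SE 0.20, adjusted p = 0.0016). Maf, a transcription factor for Il21, had 26.95, 25.1 and 37.6 CPM in mLN, against 6.02, 8.73 and 8.49 CPM in jLN (1.95, SE 0.20, adjusted p = 0.0012). The groups did not overlap for either gene, and mLN C was the highest library for both. Tox2, a chromatin factor of follicular helper cells, had 24.9, 19.5 and 33.5 CPM in mLN, against 2.48, 5.57 and 5.11 CPM in jLN (2.58, SE 0.29, adjusted p = 0.0029).

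Among the other follicular helper genes, Angptl2 (log2 fold change 2.25, SE 0.19, adjusted p = 0.00051), Izumo1r, the folate receptor 4 (1.05, SE 0.09, adjusted p = 0.00049), and Slamf6, a receptor in T cell contacts with B cells (0.64, SE 0.08, adjusted p = 0.0041), rose as well. Izumo1r had 168, 166 and 194 CPM in mLN, against 80.3, 85.0 and 89.6 CPM in jLN, so that its groups were tight and apart. Pdcd1, which encodes the inhibitory receptor PD-1, had 35.1, 30.3 and 55.3 CPM in mLN, against 15.1, 14.2 and 21.9 CPM in jLN (1.24, SE 0.23, adjusted p = 0.03), and Batf, an AP-1 factor, rose by 0.56 on the log2 scale (SE 0.10, adjusted p = 0.021). Pdcd1 missed the test without mLN A, jLN A or jLN B (adjusted p 0.062 to 0.19), and Batf without any library but jLN C (0.056 to 0.12). The other 7 passed in every omission. Bcl6, the master factor of the lineage, had 31.5, 32.03 and 42.2 CPM in mLN, against 22.4, 22.2 and 29.4 CPM in jLN (0.52, SE 0.15, adjusted p = 0.18, and 0.013 with the replicate block). Icos, a costimulatory receptor, also passed with the block alone (0.41, SE 0.10, adjusted p = 0.079, and 0.014 with the block), and Sh2d1a, the adaptor SAP, in neither (0.14, SE 0.08, adjusted p = 0.61). Within each experiment all 12 were higher in mLN, with medians of log2 differences of 1.14, 1.03 and 1.22 in A, B and C. Of all 13264 tested genes, 2452 were higher in mLN within every experiment.

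**Figure D1:**
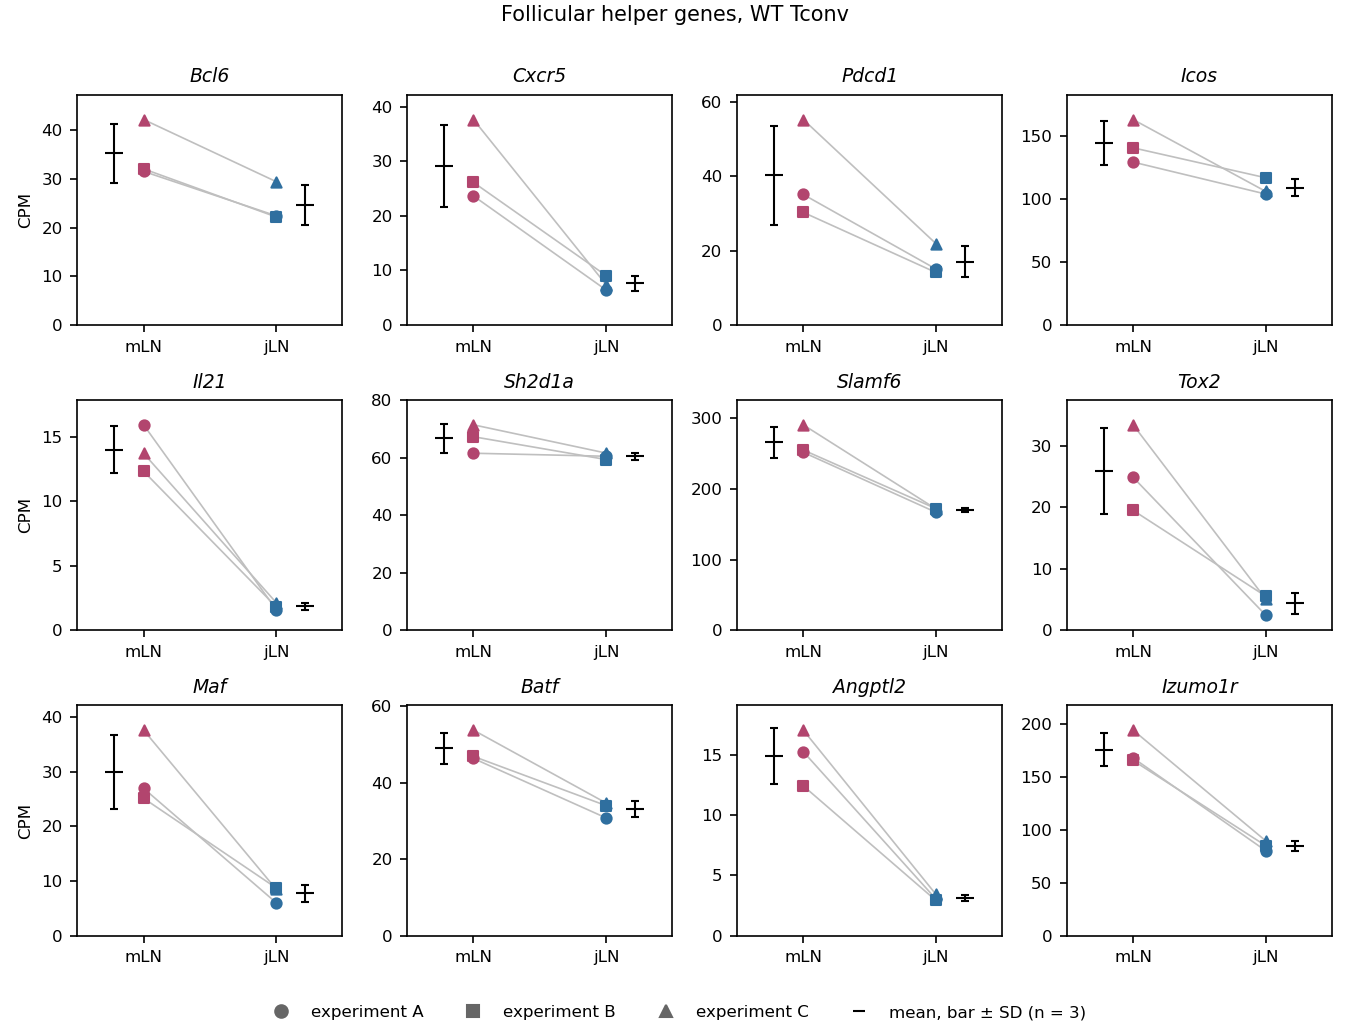
CPM of the 12 tested follicular helper genes (vertical axis, from 0) in mLN (left) and jLN (right) WT Tconv; symbols are libraries of experiments A, B and C, grey lines join libraries of an experiment, and black bars are the mean ± SD (n = 3). Il21 ran from 12.3 to 15.9 CPM in mLN and from 1.61 to 2.15 CPM in jLN, and Sh2d1a showed the smallest fitted difference of the 12.

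Genes of the type I interferon response were higher in mLN. Of the 20 listed, all tested, 18 rose, against 1.24% of all genes called higher, and the list median was 1.23. The other 2 did not pass, among them Parp14 (log2 fold change 0.49, SE 0.14, adjusted p = 0.15). With the replicate block all 20 passed. Isg15, whose promoter is shown above, had 105, 81.8 and 54.6 CPM in mLN (A, B and C), against 18.6, 22.4 and 27.2 CPM in jLN (1.82, SE 0.22, adjusted p = 0.0041). Ifit3 had 201, 162 and 74.5 CPM in mLN, against 34.4, 39.4 and 47.7 CPM in jLN (1.85, SE 0.29, adjusted p = 0.014). Rsad2 had 69.7, 57.9 and 26.7 CPM in mLN, against 6.93, 11.1 and 17.4 CPM in jLN (2.14, SE 0.37, adjusted p = 0.021). In all 3 genes mLN C was the lowest mLN library and jLN C the highest jLN library, so the sites stood closest in experiment C without overlapping.

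The same held over the list: the median log2 difference between mLN and jLN was 1.60 within experiment A, 1.44 within B and 0.56 within C. All 20 genes were higher in mLN within each, against 2452 of all 13264 tested genes. Mx1, an antiviral GTPase, showed the largest fitted change (2.61, SE 0.51, adjusted p = 0.036), with 32.2, 24.4 and 11.1 CPM in mLN, against 2.31, 1.78 and 7.204 CPM in jLN. Ifi44 (1.88, SE 0.31, adjusted p = 0.015), Oasl1 (1.51, SE 0.19, adjusted p = 0.0054) and the 2′-5′ oligoadenylate synthetase gene Oas1a (1.34, SE 0.18, adjusted p = 0.0056) rose too, as did Irf7, the factor that amplifies the response (0.99, SE 0.16, adjusted p = 0.015). Ifit3 and Oas1a have close relatives in the genome, and how reads were shared among copies is not stated. The number of calls on this list moved with single libraries: 1 without jLN B, 5 without jLN A, 8 without mLN B, 11 without mLN A, 19 without mLN C and 20 without jLN C. Ifi27l2a, with 328, 329 and 283 CPM in mLN against 148, 166 and 166 CPM in jLN (0.97, SE 0.09, adjusted p = 0.00051), was the gene that passed in every omission. Isg15, Oasl1 and Oas1a missed the test only without jLN B (adjusted p 0.053, 0.053 and 0.059). Ifit3 also missed it without mLN B or jLN A, and Rsad2, Mx1, Ifi44 and Irf7 without mLN A, mLN B or jLN A, with adjusted p up to 0.19 over these omissions.

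**Figure D2:**
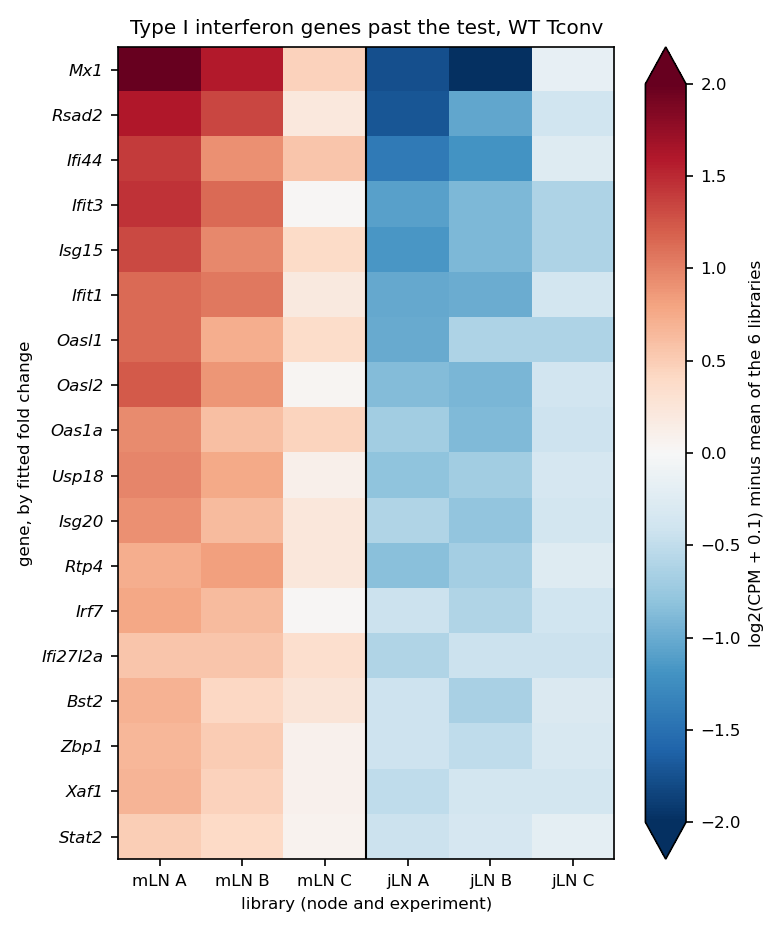
Heat map of the 18 type I interferon genes that passed the test (rows, ordered by fitted fold change) in the 3 mLN (left) and 3 jLN (right) libraries of WT Tconv; colour gives log2(CPM + 0.1) minus the gene's mean over the 6 libraries. The mLN libraries of experiments A and B are reddest, and the C libraries of both sites are palest.

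None of the 6 tested genes of gut homing passed the test, and their median log2 fold change was 0.18. Ccr9 (chromosome 9, 123678439 to 123784330, GRCm38), the receptor for the small intestinal chemokine CCL25, had 12.5, 10.8 and 17.8 CPM in mLN, against 7.96, 8.25 and 7.58 CPM in jLN. Its groups did not overlap, but it missed the test (0.79, SE 0.20, adjusted p = 0.11) and passed it with the replicate block (adjusted p = 0.048). Itga4, the α4 chain, had 147, 132 and 209 CPM in mLN, against 137, 125 and 204 CPM in jLN (0.07, SE 0.20, adjusted p = 0.93), with the C libraries highest at both sites. Itgb7, the β7 chain, had 1171, 1118 and 1117 CPM in mLN, against 1073, 1087 and 963 CPM in jLN (0.13, SE 0.06, adjusted p = 0.51). The remaining 3 genes, Itgae, Gpr15 and Ccr6, lay between 0.09 and 0.68 on the log2 scale. In WT Tconv of the ileum, scaled together with the nodes, Ccr9 had 202 to 286 CPM, Itga4 161 to 221 CPM and Itgb7 559 to 715 CPM.

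Of the 7 tested genes of the retinoic acid pathway 1 rose, with a median log2 fold change of 1.51, against 1.24% of all genes called higher. P2rx7 (chromosome 5, 122643911 to 122691432), an ATP-gated channel that retinoic acid induces in T cells, had 46.4, 39.8 and 71.4 CPM in mLN, against 12.99, 10.5 and 19.4 CPM in jLN (1.89, SE 0.25, adjusted p = 0.006, and 0.061 without jLN B). Dhrs3, a retinal reductase induced by retinoic acid, had 4.89, 4.06 and 3.37 CPM in mLN, against 0.99, 1.20 and 2.15 CPM in jLN (1.51, SE 0.38, adjusted p = 0.10). Stra6 (2.47, SE 0.84) and Tgm2 (2.19, SE 0.88) did not pass either, at low counts. Stra6 had 12, 27 and 25 counts in mLN against 6, 0 and 4 in jLN, and Tgm2 35, 14 and 43 against 14, 0 and 4. The receptor genes Rara, Rarg and Rxra had fitted values of -0.09, -0.21 and -0.34 on the log2 scale and did not pass. Without jLN C, Dhrs3 passed as higher beside P2rx7. In TNFdARE Tconv, P2rx7, Tgm2 and Dhrs3 passed as higher and none of the 7 tested as lower. In WT Treg, P2rx7, Stra6, Tgm2 and Dhrs3 passed as higher and Rxra as lower. Of the 13 genes of skin and inflammatory homing 1 rose: Cxcr3, the chemokine receptor of type 1 T cells, had 22.1, 21.02 and 49.2 CPM in mLN, against 9.78, 7.77 and 10.8 CPM in jLN (1.70, SE 0.31, adjusted p = 0.025, but 0.11 without jLN A and 0.18 without jLN B). Ccr10, a skin homing receptor, had 0.42, 0.22 and 0.04 CPM in mLN, against 2.81, 1.82 and 1.77 CPM in jLN, and fell short of the test (-3.23, SE 0.68, adjusted p = 0.051, and 0.013 with the block). Among the 13 genes of naive cells and node retention, Ccr7 and S1pr1, which route T cells into and out of nodes, had fitted values of -0.04 and 0.07 on the log2 scale and did not pass. The exception was Il7r, the interleukin 7 receptor that sustains naive and memory T cells, with 541, 544 and 603 CPM in mLN, against 781, 797 and 886 CPM in jLN (-0.55, SE 0.07, adjusted p = 0.0056), which passed in every omission. With the replicate block Dapl1 (-0.28, SE 0.08, adjusted p = 0.18) also passed as lower (0.041). Igfbp4 (0.33, SE 0.08, adjusted p = 0.091) passed as higher with it (0.02).

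Activation genes rose in part. Of 13 tested, 4 rose and none fell, with a median of 0.53, against 1.24% of all genes called higher. Tnfrsf9, the costimulatory receptor 4-1BB, had 57.6, 65.6 and 61.0 CPM in mLN, against 29.2, 25.3 and 29.4 CPM in jLN (1.14, SE 0.10, adjusted p = 0.00051), with tight groups that passed in every omission. Irf4, a factor graded by antigen receptor signalling, had 26.4, 27.3 and 30.7 CPM in mLN, against 7.30, 11.2 and 12.7 CPM in jLN (1.44, SE 0.19, adjusted p = 0.0054). Egr2, an antigen receptor target, followed at 0.88 (SE 0.12, adjusted p = 0.0055), and Tnfrsf4, the receptor OX40, at 0.73 (SE 0.14, adjusted p = 0.029). Irf4 and Egr2 missed the test without jLN B (adjusted p 0.053 and 0.057), and Tnfrsf4 without any library but jLN C (0.087 to 0.16). Cd69, an early activation marker, had 341, 261 and 285 CPM in mLN, against 322, 244 and 302 CPM in jLN (0.03, SE 0.12, adjusted p = 0.96), and Myc did not pass either. Nr4a1 missed the test (0.53, SE 0.14, adjusted p = 0.12) and passed as higher with the replicate block (0.0011).

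Co-inhibitory receptors showed 5 of 8 tested genes higher, with a median of 0.96, against 1.24% of all genes called higher. Besides Pdcd1 these were Ctla4, a brake on CD28 costimulation (1.13, SE 0.17, adjusted p = 0.012), Tigit (2.60, SE 0.46, adjusted p = 0.022), Cd200 (0.68, SE 0.11, adjusted p = 0.013) and Lag3, which binds MHC class II (3.12, SE 0.63, adjusted p = 0.043). Ctla4 had 29.6, 23.5 and 37.7 CPM in mLN, against 15.6, 13.1 and 12.6 CPM in jLN, and Lag3 4.35, 4.20 and 7.72 CPM against 0.37, 0.14 and 1.40 CPM. Btla and Tox did not pass, at -0.01 and 0.10 on the log2 scale. No gene of this list passed without jLN B, 1 passed without mLN A or jLN A, and 3 without mLN B or mLN C. Ctla4 and Tigit were also the 2 genes that rose of the 12 tested on the Treg core list, whose Il2ra (0.44, adjusted p = 0.48) and Foxp3 did not pass.

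Genes of type 1 and cytotoxic cells split, beside a share of 1.24% of all genes called higher. Of 15 tested, 5 rose: Cxcr3, the T-box factor Eomes (2.06, SE 0.27, adjusted p = 0.0054), the granzyme gene Gzmk (3.75, SE 0.55, adjusted p = 0.01), the chemokine gene Ccl5 (2.13, SE 0.35, adjusted p = 0.016) and Nkg7 (0.92, SE 0.18, adjusted p = 0.032). Eomes had 11.1, 15.1 and 7.83 CPM in mLN, against 2.76, 2.93 and 2.42 CPM in jLN, and Gzmk 7.15, 4.59 and 6.62 CPM against 0.37, 0.10 and 0.91 CPM. Ifng, the defining cytokine, was at 0.90 to 2.36 CPM in mLN and 0.70 to 4.29 CPM in jLN and did not pass (-0.30, SE 0.65, adjusted p = 0.92), and neither did Tbx21, which encodes T-bet (1.36, SE 0.38, adjusted p = 0.15). Eomes missed the test without jLN B (adjusted p = 0.053), Gzmk without mLN A or jLN A (0.05 and 0.062), Ccl5 without mLN A or jLN B (0.09 and 0.14), and Nkg7 without any library but jLN C (0.052 to 0.16). On the list of type 17 cells 1 of 9 tested genes rose, the interleukin 23 receptor gene Il23r at 1.21, 1.53 and 1.72 CPM in mLN, against 0.29, 0.10 and 0.16 CPM in jLN (2.97, SE 0.59, adjusted p = 0.039). It missed the test in each of the 6 omissions (0.066 to 0.20), and Il17a, too low to be tested, had 15, 2 and 9 counts in mLN and 0 in each jLN library.

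On some lists a single gene passed, beside 1.24% of all genes called higher and 0.181% called lower. Bcl3, a nuclear IκB protein that partners NF-κB p50 and p52, had the smallest adjusted p of all genes, with 99.7, 89.9 and 85.2 CPM in mLN, against 33, 35.1 and 30.7 CPM in jLN (1.48, SE 0.09, adjusted p = 0.00024). The other 15 tested genes of the TNF and NF-κB list did not pass; with the replicate block Tnfrsf1b passed as higher (0.30, adjusted p = 0.042) and Tnf as lower (-0.66, adjusted p = 0.0053). Pmepa1, a feedback inhibitor induced by TGF-β, was the 1 gene of 11 that rose on that list (1.06, SE 0.14, adjusted p = 0.0054), and Hif1a, the oxygen-sensing factor, the 1 of 7 on the Hif list (0.51, SE 0.07, adjusted p = 0.0086, and 0.078 without jLN B). Bcl3 and Pmepa1 passed in every omission. No gene passed on the lists of type 2 cells, proliferation, the circadian clock, glucocorticoid response, aryl hydrocarbon and bile acid sensing, cholesterol and fatty acid synthesis, or glycolysis. With the replicate block, 3 of the 12 glycolysis genes passed as higher (Pfkp, Tpi1 and Ldha, 0.20 to 0.39 on the log2 scale, adjusted p 0.035 to 0.046), as did the glucocorticoid target Ddit4 (0.25, adjusted p = 0.037) and, on the TGF-β list, Skil (0.40, adjusted p = 0.0027). The clock gene Ciart (-0.73, adjusted p = 0.044) and, on the Hif list, Pdk1 (-0.38, adjusted p = 0.0051) passed as lower with the block.

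**Figure D3:**
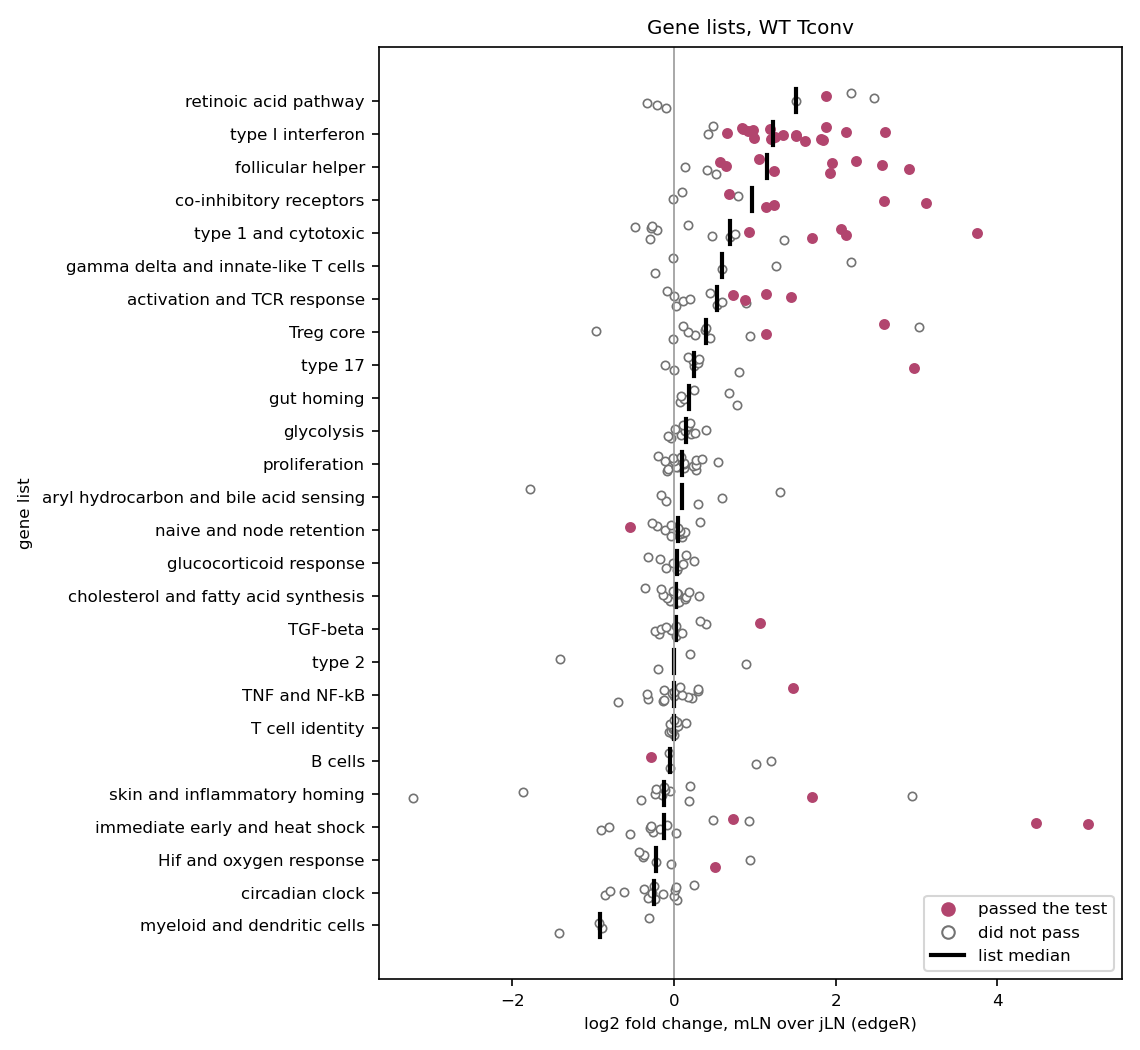
Log2 fold change, mLN over jLN, of each tested gene (points) on lists with at least 4 tested genes (rows); filled points passed the test, open points did not, and black bars are list medians. The interferon list (18 of 20 genes) and the follicular helper list (9 of 12 genes) hold the most filled points, and T cell identity genes lie at 0.

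Of the 9 immediate early genes on their list, 8 were highest in experiment A and lowest in C at both sites. The exception was Btg2, with 436, 455 and 474 CPM in mLN (A, B and C), against 470, 493 and 482 CPM in jLN. Of the 5 heat shock genes, 3 were called higher in mLN, against 1.24% of all genes. Fos, an AP-1 subunit, had 426, 73.1 and 12.3 CPM in mLN, against 512, 224 and 8.98 CPM in jLN. Jun had 582, 188 and 12.9 CPM in mLN, against 606, 291 and 37.3 CPM in jLN. For both genes experiment A was highest and C lowest at each site, and neither passed the test (adjusted p = 0.91 and 0.96). Junb (-0.91, SE 0.72, adjusted p = 0.72) and Dusp1 (-0.81, SE 0.90, adjusted p = 0.81) passed as lower only with the replicate block (0.042 and 0.031). Hspa1b and Hspa1a, neighbouring genes for near-identical inducible HSP70 chaperones, were higher in mLN (4.48, SE 0.70, adjusted p = 0.013; 5.13, SE 0.82, adjusted p = 0.014). Hspa1b had 140, 136 and 15.8 CPM in mLN, against 5.78, 3.17 and 4.03 CPM in jLN, so mLN C lay far below the other mLN libraries and still above jLN. Reads of this pair cannot be told apart with certainty, since the counting of shared reads is not stated. Hsp90aa1, the stress-inducible HSP90, had 467, 358 and 483 CPM in mLN, against 267, 240 and 278 CPM in jLN (0.73, SE 0.11, adjusted p = 0.012). All 3 missed the test without jLN A or jLN B (adjusted p 0.057 to 0.15), Hsp90aa1 also without mLN A (0.056) and Hspa1a without mLN B (0.051). With the replicate block 5 of the 14 genes on this list rose and 2 fell.

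**Figure D4:**
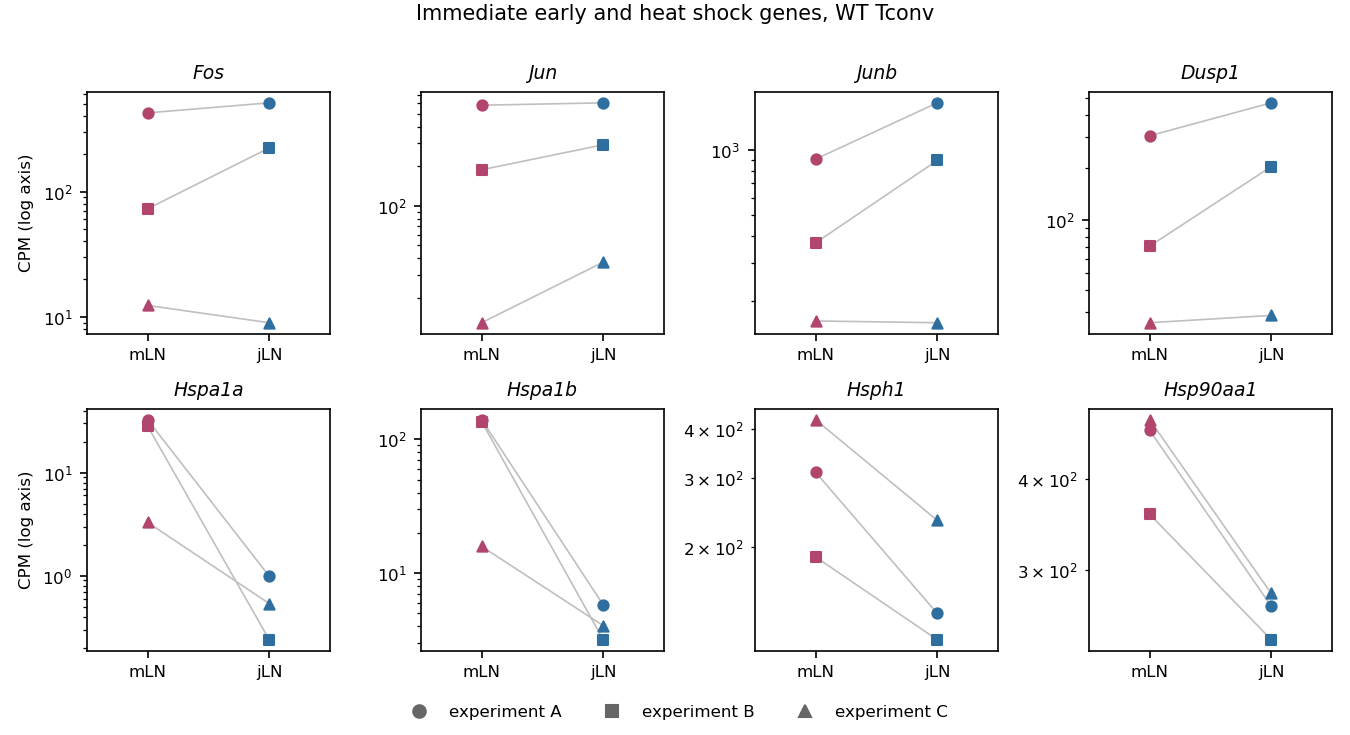
CPM (log axis) of 4 immediate early genes (top row) and 4 heat shock genes (bottom row) in mLN (left) and jLN (right) WT Tconv; symbols are the libraries of experiments A, B and C, joined by experiment. Fos spans 12.3 to 426 CPM among mLN libraries and 8.98 to 512 CPM among jLN libraries, in the order of the experiments, while the heat shock genes are higher in mLN in every experiment.

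Outside the lists, the largest called rises among genes with a mean log2 CPM of at least 3 were Dtx4, an E3 ubiquitin ligase of the Deltex family linked to Notch (2.46, SE 0.32, adjusted p = 0.0056, and 0.061 without jLN B), and Acot7, a thioesterase that cleaves long-chain acyl-CoA (1.79, SE 0.16, adjusted p = 0.00056). Acot7 had 34.02, 24.3 and 30.6 CPM in mLN, against 8.33, 7.63 and 9.84 CPM in jLN, and passed in every omission. Among the genes called lower at that level the largest change was that of Zfp119b, a zinc finger gene, with 8.40, 9.13 and 9.13 CPM in mLN, against 15.4, 16.8 and 16.8 CPM in jLN (-0.88, SE 0.14, adjusted p = 0.013). Galnt4, which starts O-linked glycans (-0.76, SE 0.13, adjusted p = 0.016), and Zfp36l2, which destabilises AU-rich mRNAs (-0.65, SE 0.11, adjusted p = 0.021), followed. Zfp36l2 had 399, 335 and 401 CPM in mLN, against 699, 547 and 529 CPM in jLN. Tent5a, a poly(A) polymerase (-0.56, SE 0.09, adjusted p = 0.012), Appl2, an endosomal adaptor (-0.54, SE 0.10, adjusted p = 0.024), N6amt1, a methyltransferase (-0.53, SE 0.11, adjusted p = 0.044), and Arl5c, a small GTPase (-0.51, SE 0.09, adjusted p = 0.025), were also lower. So were Atp1b1, a subunit of the sodium pump (-0.48, SE 0.07, adjusted p = 0.0071), Cep97 of the centriole (-0.43, SE 0.09, adjusted p = 0.042), Tmem87b (-0.40, SE 0.08, adjusted p = 0.049) and Sgms1, a sphingomyelin synthase (-0.37, SE 0.07, adjusted p = 0.036).

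Of these 11 lower genes, each missed the test in at least 2 of the 6 omissions. Tent5a did so without mLN A or jLN B (0.059 and 0.092), and Atp1b1 without mLN A, jLN A or jLN B (0.057 to 0.061). Zfp119b and Zfp36l2 did so without mLN A, mLN B, jLN A or jLN B (0.056 to 0.11), and Galnt4 without any mLN library or jLN B (0.055 to 0.15). Appl2, Arl5c, Cep97 and Sgms1 missed it without any library but jLN C (0.063 to 0.22), as did Ighm (0.14 to 0.22) and Krt19 (0.094 to 0.14). N6amt1 and Tmem87b missed it in all 6 (0.073 to 0.23). Krt19, a keratin gene on the gut epithelium list, had 1, 0 and 0 counts in mLN, against 29, 15 and 13 counts in jLN, and passed as lower (adjusted p = 0.021), while the other tested genes of that list, Epcam and Cdh1, did not.

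The TNFdARE Tconv of the same nodes came from other libraries and asked whether the site difference is also seen in diseased mice. Their fit, however, estimated each gene's spread together with the WT libraries that gave the 188 calls. Passing in both genotypes is therefore not independent: without WT mLN A 151 genes passed in TNFdARE, and without WT jLN C 233. In TNFdARE 195 of 16234 genes passed (1.2%), 159 higher (0.979%) and 36 lower (0.222%). The TNFdARE jLN B library held 29599 detected genes, against 17911 to 20875 in the other TNFdARE Tconv node libraries. Of the 164 genes called higher in WT Tconv, 157 had the same direction in TNFdARE and 71 passed. Of the 24 called lower 23 had the same direction and 4 passed. Over all genes tested in WT Tconv, 48.8% had a positive and 51.2% a negative value in TNFdARE. Over the called genes the fitted log2 fold changes of the genotypes correlated at r 0.815, as a description across genes. Of the follicular helper genes 10 of 13 were called higher in TNFdARE mLN, with a median of 1.16; Icos and Sh2d1a were among them and had not passed in WT (adjusted p = 0.079 and 0.61, and 0.014 and 0.43 with the block), and Pdcd1, called in WT, did not pass (1.16, adjusted p = 0.14). Il21 had 28.1 and 42.4 CPM in TNFdARE mLN (B and C), against 2.27, 3.37 and 2.47 CPM in TNFdARE jLN (A, B and C; log2 fold change 3.71, SE 0.23, adjusted p = 4e-06). Ccr9 had 23.5 and 30.9 CPM in TNFdARE mLN, against 8.35, 8.74 and 7.37 CPM in TNFdARE jLN, and passed there (1.74, SE 0.20, adjusted p = 0.00078). Its difference between genotypes did not pass (0.94, SE 0.27, adjusted p = 1).

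Interferon genes gave fewer calls in TNFdARE. Of the 20, 19 had a positive fitted value, 1 passed (Isg15, 1.43, SE 0.24, adjusted p = 0.011), and the median was 0.45. Ifit3 had 8.50 and 13.3 CPM in TNFdARE mLN, against 10.2, 5.47 and 5.30 CPM in TNFdARE jLN, so its groups overlapped. The site effect was lower in TNFdARE than in WT for all 20 genes, by a median of -0.56 on the log2 scale, but none of these differences passed. TNFdARE mLN held experiments B and C alone, while the WT median difference was 1.6 within A, 1.44 within B and 0.56 within C. The part of the absent experiment in this was not tested. Over all 16234 genes no difference of site effects between TNFdARE and WT passed in edgeR's test, with 482 genes at an unadjusted p below 0.05. With the replicate block 3 genes passed, with DESeq2 12 and with no filter on low counts 68. Tnfrsf9 was among those below 0.05, with a WT site effect larger by 0.85 (TNFdARE minus WT -0.85, SE 0.15, adjusted p = 0.33). The experiment A library of TNFdARE mLN is not analysed here. Without TNFdARE mLN C, jLN A or jLN B 60, 88 or 100 genes passed.

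WT Treg of the same nodes asked how far the site difference is shared by the other CD4+ subset. In a fit of the 12 WT node libraries 372 of 14602 genes passed in Treg (2.55%), 273 higher (1.87%) and 99 lower (0.678%). This fit too shared each gene's spread with the WT Tconv libraries, so passing in both subsets is not independent. Of the 164 genes called higher in Tconv, 155 had the same direction in Treg and 96 passed, while 2 passed as lower, and of the 24 called lower 22 had the same direction and 12 passed, while 1 passed as higher. Over all genes tested in WT Tconv, 48% had a positive and 52% a negative value in Treg. Of the interferon genes 15 of 20 rose in Treg (median 1.02) and of the follicular helper genes 8 of 12 (median 0.78). Ccr9 had 53.1, 47.3 and 70.4 CPM in mLN Treg, against 12.7, 13.98 and 10.3 CPM in jLN Treg (2.20, adjusted p = 1.9e-05). In edgeR's test without the block, 15 of 14602 genes (0.103%) differed in site effect between Tconv and Treg, 10 (0.0685%) with a higher and 5 (0.0342%) with a lower value in Tconv, and none was on the interferon or follicular helper list. The count was 53 with the replicate block, 112 with DESeq2 and 287 with no filter on low counts.

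The difference between subsets was clearest for Myb, a transcription factor of stem-like and effector T cells. In the scaling over the 12 libraries, Tconv had 42.3, 48.9 and 38.2 CPM in mLN, against 21.5, 19.1 and 16.6 CPM in jLN (1.18, adjusted p = 8.4e-05). Treg had 49.6, 57.1 and 49.1 CPM in mLN, against 77.2, 81.3 and 76.5 CPM in jLN (-0.59, adjusted p = 0.0096), so the site effect ran in opposite directions (Tconv minus Treg 1.77, SE 0.16, adjusted p = 0.00041). Irf4 rose in Tconv (1.47) and did not pass in Treg (0.12, adjusted p = 0.80; Tconv minus Treg 1.35, SE 0.23, adjusted p = 0.035).

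**Figure D5:**
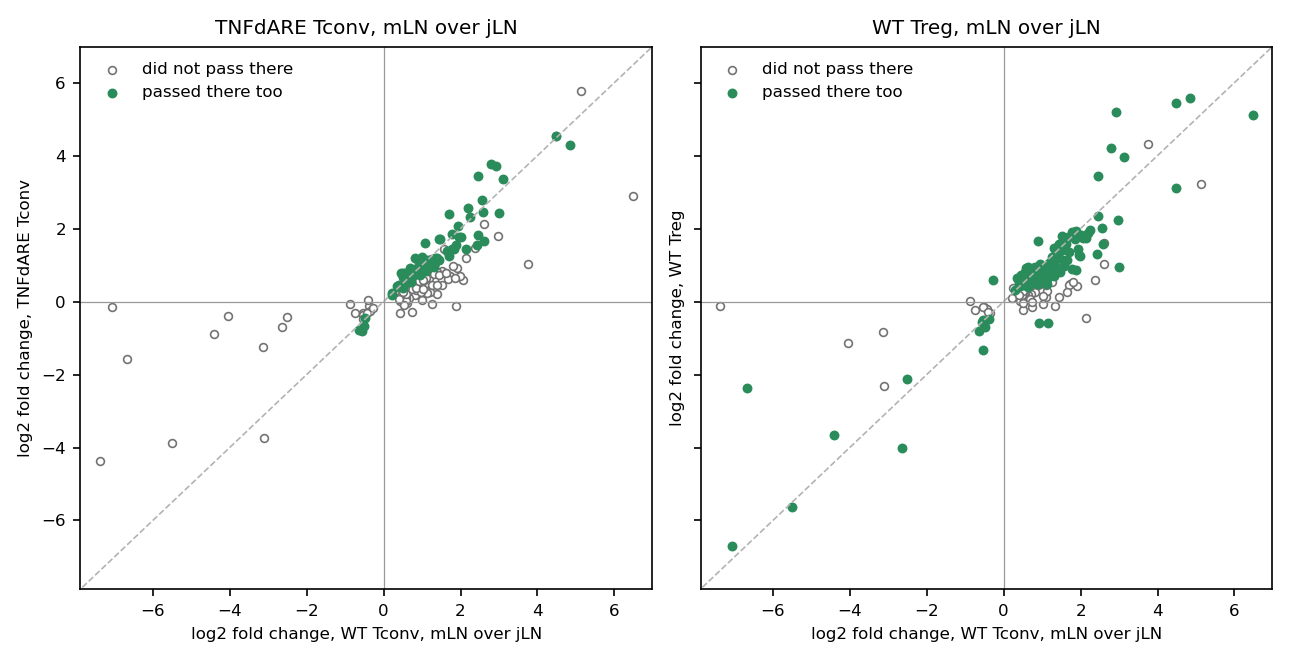
Log2 fold change, mLN over jLN, of the 188 genes called in WT Tconv (horizontal axes) against the same in TNFdARE Tconv (left) and WT Treg (right); filled points also passed there, and the dashed line marks equal values. In TNFdARE 71 higher and 4 lower points are filled, and in Treg 96 higher and 12 lower points are filled on the side they hold in Tconv.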

How the data were processed

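The deposited table holds raw read counts of 46603 Ensembl genes, made by the authors and not normalised. The submitters' processing notes name GRCm38, Bowtie2 2.3.3.1 and cutadapt 1.15; the counting program, its use of strand and the annotation release are not given in the sources used here. Per the labels' protocols, full-length cDNA was made with SMART-Seq v4 from 1 of 2 RNA inputs, and which library had which is not stated. A second deposited table, of FPKM values, was not used. Symbols and positions came from GENCODE M21 (46091 identifiers). Promoter sequences came from RefSeq.

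The 6 WT Tconv node libraries were fitted with edgeR 4.0.16 (R 4.3.3): TMM factors, filterByExpr, 1 mean per site and the quasi-likelihood F test with 4 residual degrees of freedom. P-values were adjusted by Benjamini and Hochberg over every gene tested, with a threshold of 0.05. SE was taken from the log2 fold change and its F. TNFdARE Tconv and the genotype difference came from 11 libraries, WT Treg and the subset difference from 12. CPM of single genes used TMM library sizes, and sums over lists total counts. Differences within an experiment used log2 CPM with a prior count of 2. The fitting script was tested on simulated counts. With PCR reads and no molecular identifiers, depth limits only counting error.

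Named genes were Foxp3, Ccr9, Itga4 and Itgb7; up to 12 higher and 12 lower genes with the largest change among those past the test, mean log2 CPM of 3 or more and groups that did not overlap, without predicted genes, pseudogenes, receptor segments and sex-linked genes; and up to 4 members past the test of each of 36 lists (377 genes, of which 2 were not matched because their symbol had more than 1 identifier). Other list members were named with their values; some genes are not reported here. For the subset difference up to 6 genes per direction were named. The comparison, its members and the lists were chosen with earlier results of these data known.

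The experiment letter, which the labels give, marks a shared experiment, so libraries of a letter form pairs. Their mix of sexes need not be equal. The log2 difference of Y-linked Ddx3y, mLN minus jLN, was 0.9, 0.02 and -0.61 in A, B and C. Its part in the results was not tested. As a check, deviations from the site means correlated across genes at r 0.17, 0.08 and 0.28 for mLN and jLN libraries of the same letter (A, B, C) and at -0.23 to 0.08 for different letters. The letter as a replicate block was an alternative, beside RLE factors, total counts alone, DESeq2 1.42.0, limma 3.58.1 voom with quality weights, other filters and fits, and the omission of each library. The block over experiments A and B alone was added after the data were seen.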

Additional observations from a re-analysis of the deposited data

Results flagged for a closer look

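With 3 libraries a group, no library was tested as an outlier. The site effect (mLN minus jLN) differed between WT Tconv and WT Treg past edgeR's interaction test for these named genes, with values given as Tconv minus Treg on the log2 scale in a fit of 12 libraries.

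Higher in Tconv than in Treg was the site effect of Serpina3g, a serine protease inhibitor gene (2.10, SE 0.29, adjusted p = 0.0094), with 3.04 in Tconv and 0.94 in Treg. Its level was 10.4 to 15.03 CPM in mLN Tconv against 1.09 to 2.09 CPM in jLN Tconv, and 98.4 to 141 CPM in mLN Treg against 59.8 to 75.2 CPM in jLN Treg. Myb (1.77, SE 0.16, adjusted p = 0.00041), Nkg7 (1.52, SE 0.21, adjusted p = 0.0094), Casp4, an inflammatory caspase gene (1.48, SE 0.25, adjusted p = 0.035), Irf4 (1.35, SE 0.23, adjusted p = 0.035) and Slc4a8, a sodium bicarbonate transporter gene (1.30, SE 0.19, adjusted p = 0.011), followed. Nkg7 rose in Tconv (0.94) and fell in Treg (-0.58, adjusted p = 0.048), while Casp4 rose in Tconv (1.37) and did not pass in Treg (-0.12, adjusted p = 0.82).

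Lower in Tconv than in Treg was the site effect of Mmd (-1.62, SE 0.17, adjusted p = 0.0016), which rose in Treg (2.05) and did not pass in Tconv (0.44, adjusted p = 0.12). Pard6g, a cell polarity gene (-1.41, SE 0.17, adjusted p = 0.0044), Glb1, the lysosomal beta-galactosidase gene (-0.93, SE 0.13, adjusted p = 0.0094), Ighm (-0.86, SE 0.12, adjusted p = 0.011) and Itgav, the αv integrin gene (-0.80, SE 0.13, adjusted p = 0.021), followed. Ighm had 636 to 677 CPM in mLN Tconv against 737 to 812 CPM in jLN Tconv, and 989 to 1270 CPM in mLN Treg against 749 to 786 CPM in jLN Treg. Whether B cell or plasma cell RNA contributes to it was not tested.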

How the results depend on the processing

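With 3 libraries a site, the number of calls in WT Tconv (188) varied with the settings. It was 464 with the replicate block, 434 with DESeq2, 605 with no filter beyond 1 count, 59 in a fit of all 42 libraries and 570 with the replicate block over experiments A and B only, and 31 to 269 when 1 library was left out. Other settings gave 161 to 268. The share of calls that were higher was 87.2% in the main setting, 80.7% with total counts alone, 77.2% with DESeq2, 75.2% with the replicate block, 69.5% with the block over experiments A and B only and 58.8% with no filter. Without a filter the median of all genes was -0.63, against -0.02 in the main setting, and -0.14 in the fit of 42 libraries. TNFdARE Tconv gave 195 calls, 373 with the replicate block, 472 with DESeq2, 461 with no filter and 60 to 233 with 1 library left out. The genotype difference gave 0, 3 with the replicate block, 12 with DESeq2, 68 with no filter and 0 to 1 with 1 library left out. The subset difference gave 15, 53 with the replicate block, 112 with DESeq2, 287 with no filter and 10 to 25 with 1 library left out. Omissions leave fewer samples; for the other settings the cause was not tested. The replicate block added a call for 1 of 54 named genes, Ccr9, and DESeq2 added 1. Calls of named genes were lost for 34 in the fit of all 42 libraries, 9 in the fit of 12, 7 in the fit of 11, 3 with voom, 3 with the block over A and B only and 1 with no filter. The fit of 42 libraries gave 4 interferon calls, against 18, and 5 follicular helper calls, against 9. Among named genes only Foxp3 and Itga4 changed sign, and neither was called: Foxp3 was 0.006 without a filter, 0.011 with voom, 0.004 in the fit of 12 libraries and 0.069 with the block over A and B only, and with 1 library left out it ran from -0.075 to 0.054, positive without mLN B, mLN C or jLN C. Itga4 ran from -0.153 to 0.318 with 1 library left out, negative without mLN C, jLN A or jLN B.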

Other observations

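The genes below were picked with their values in view, outside the rule for named genes, and are given as values. Besides P2rx7, a pair of genes of extracellular nucleotide metabolism was higher in mLN Tconv. Art2b, an ecto-ADP-ribosyltransferase that in mice gates P2RX7 from extracellular NAD, had 81.3, 77.8 and 93.9 CPM in mLN (A, B and C), against 19.7, 25.6 and 28.9 CPM in jLN (log2 fold change 1.77, SE 0.14, adjusted p = 0.00049, edgeR). Nt5e, which encodes CD73 and makes adenosine from AMP, had 93.2, 84.7 and 132 CPM in mLN, against 26.9, 29.8 and 42.6 CPM in jLN (1.65, SE 0.20, adjusted p = 0.0041, and 0.053 without jLN B). Both passed in TNFdARE Tconv (1.44 and 1.39) and in WT Treg (1.91 and 1.13). In ileal WT Tconv, Nt5e had 360 to 482 CPM and P2rx7 235 to 252 CPM. Art2b went the other way, with 50.2 to 60.3 CPM in ileum against 76.4 to 91.7 CPM in mLN in the same scaling.

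Dtx1, another Deltex ligase gene, had 375, 395 and 487 CPM in mLN, against 145, 149 and 190 CPM in jLN (1.38, SE 0.13, adjusted p = 0.00064). Asb2, a substrate adaptor of a ubiquitin ligase, had 8.07, 6.60 and 12.8 CPM in mLN, against 0.25, 0.43 and 0.27 CPM in jLN (4.84, SE 0.39, adjusted p = 0.00049), and 196 to 252 CPM in ileal WT Tconv. Socs3, a feedback inhibitor of cytokine signalling, had 226, 216 and 224 CPM in mLN, against 106, 116 and 91.7 CPM in jLN (1.09, SE 0.09, adjusted p = 0.00049). Dtx1, Asb2, Socs3 and Art2b passed in every omission of a library, and all 4 also passed in TNFdARE Tconv and in WT Treg.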
